A study of Homo sapiens with 16 samples.

Results

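Binding sites of INTS13 that were called in HEK293T cells with and without HDGF depletion, but not in glucose-starved cells, numbered 10460. They were chosen by their presence in 3 lists: intervals of the INTS13 control peak list on chromosomes 1 to 22 and X that shared at least 1 base with an INTS13 peak after HDGF depletion and no base with any INTS13 peak after starvation, and they made up 33.5% of the 31208 control intervals. The other control intervals fell into 3 classes: 5252 were kept in both conditions, 1653 overlapped a starvation peak only (starvation-only peaks), and 13843 overlapped neither and are called control-only peaks. HEK293T is an established human embryonic kidney line, used here as wild type. INTS13 was immunoprecipitated from cells treated for 72 h with a pool of small interfering RNAs against HDGF, from cells grown for 24 h in medium without glucose, and from cells given a control depletion. The files used here hold no measure of how far HDGF was depleted. HDGF was immunoprecipitated from cells starved in the same way and from cells given the control depletion. The authors gave 1 peak list for each of these 5 groups of 2 replicates, which leaves every value without a replicate error and no test between conditions. The INTS13 antibody was from Bethyl Laboratories in the HDGF-depleted and control cells and from Proteintech in the starved cells, so treatment and antibody cannot be told apart wherever absence in starvation is described. For HDGF 1 antibody (Proteintech) served both groups. The labels name no control depletion for the starved cells and no unstarved control without one. Lack of glucose and lack of the control depletion therefore cannot be told apart between starved and control cells, for either protein.

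Integrator is a large nuclear complex that travels with RNA polymerase II. It cuts the nascent transcripts of small nuclear RNA (snRNA) genes, which encode the RNAs of the spliceosome, and it ends transcription early at many protein-coding genes. INTS13 is a subunit of a module of Integrator that can contact DNA and RNA and that links the complex to sequence-specific transcription factors. HDGF is a chromatin reader whose PWWP domain binds methylated histone H3 on nucleosomes. Glucose starvation lowers the cell's energy supply and engages lysosomes and autophagy, which recycle cell components.

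Where the INTS13 sites lay on promoters, the letters CACGTG, known as an E-box, had the highest share relative to all promoters among 11 short motifs searched, so promoters of the strongest such sites are shown first. The windows are RefSeq promoters of build GRCh38.p14, of 250 bases before and 50 bases after an annotated start, and are written 5′ to 3′ along the gene, with every CACGTG in capitals. E-boxes are bound by basic helix-loop-helix factors such as MYC with MAX, USF1, and the TFEB family that governs lysosomal genes. NIPSNAP1 is shown as the single window among the 8 strongest named promoters without these letters, and the windows of CLCN6 and GPRASP3 are not printed.
LAMP1, chr13:113296989-113297288, plus strand: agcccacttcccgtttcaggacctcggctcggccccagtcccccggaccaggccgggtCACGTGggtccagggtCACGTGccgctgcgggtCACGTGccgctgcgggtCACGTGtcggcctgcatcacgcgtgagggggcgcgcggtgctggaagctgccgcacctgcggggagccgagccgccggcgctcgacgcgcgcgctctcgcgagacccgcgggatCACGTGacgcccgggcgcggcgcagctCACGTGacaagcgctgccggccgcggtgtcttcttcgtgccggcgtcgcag
DNAJC8, chr1:28232980-28233279, minus strand: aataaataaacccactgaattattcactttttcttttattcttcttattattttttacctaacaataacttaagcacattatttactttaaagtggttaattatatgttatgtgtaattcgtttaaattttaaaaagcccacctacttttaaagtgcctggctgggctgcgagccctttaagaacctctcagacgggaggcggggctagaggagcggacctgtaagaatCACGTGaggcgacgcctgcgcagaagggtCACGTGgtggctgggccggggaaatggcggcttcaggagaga
BAX, chr19:48954625-48954924, plus strand: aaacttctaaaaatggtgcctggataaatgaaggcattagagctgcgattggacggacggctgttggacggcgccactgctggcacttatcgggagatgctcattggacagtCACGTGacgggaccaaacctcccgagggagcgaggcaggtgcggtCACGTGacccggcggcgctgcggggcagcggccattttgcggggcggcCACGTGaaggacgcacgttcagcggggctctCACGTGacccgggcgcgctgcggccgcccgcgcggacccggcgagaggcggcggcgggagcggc
SUMF1, chr3:4467220-4467519, minus strand: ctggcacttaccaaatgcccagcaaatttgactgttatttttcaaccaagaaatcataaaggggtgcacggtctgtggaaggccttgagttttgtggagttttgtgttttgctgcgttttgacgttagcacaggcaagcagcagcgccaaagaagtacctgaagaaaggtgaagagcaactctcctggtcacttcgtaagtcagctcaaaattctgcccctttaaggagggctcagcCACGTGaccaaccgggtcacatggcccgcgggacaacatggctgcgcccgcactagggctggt
NIPSNAP1, chr22:29581064-29581363, minus strand: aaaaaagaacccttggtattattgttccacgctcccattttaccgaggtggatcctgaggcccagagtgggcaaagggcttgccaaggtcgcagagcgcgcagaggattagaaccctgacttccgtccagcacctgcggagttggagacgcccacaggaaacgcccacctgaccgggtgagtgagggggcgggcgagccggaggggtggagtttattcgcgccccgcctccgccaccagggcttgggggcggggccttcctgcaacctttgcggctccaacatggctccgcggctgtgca
ATG3, chr3:112561913-112562212, minus strand: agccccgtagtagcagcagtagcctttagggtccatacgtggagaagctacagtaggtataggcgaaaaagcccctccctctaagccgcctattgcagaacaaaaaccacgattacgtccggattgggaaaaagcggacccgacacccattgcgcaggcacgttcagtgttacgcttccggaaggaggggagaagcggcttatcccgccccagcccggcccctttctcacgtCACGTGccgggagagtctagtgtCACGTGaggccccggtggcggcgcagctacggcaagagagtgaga
The promoter of LAMP1, a main membrane protein of lysosomes, holds 6 copies and that of BAX, a cell death effector, holds 4.

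LAMP1 also had the strongest site at any gene. Its peak had a fold enrichment over background of 9.04 in the depletion list and 9.46 in the control list, and lay at chr13:113296933-113297268. The nearest starvation peak was 18520 kb away, and neither HDGF list had a peak over it. At HEXA, a lysosomal enzyme subunit, the fold was 10.2 after HDGF depletion and 6.62 in control, and the nearest starvation peak was 85518 bp away, again with no HDGF peak. Both sites were called with and without HDGF depletion, as the rule demands of every site.

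Most of the sites were weak, like most of the control list. The rule chose them by presence in the depletion list, which held 50.3% of all control peaks, and by absence from the starvation list, which held for 77.9% of all control peaks and for 66.6% of those kept in depletion, so the values of these 3 lists are a description. The control fold, the authors' value at the summit of each peak, ranged from 2.43 to 16.2 with a median of 3.11, or 22 reads at the summit, and the median over all control peaks was the same. It was under 4 at 95.7% of the sites, against 76.0% of the peaks kept in both conditions and 97.8% of the control-only peaks, and 93.0% of all control peaks. Only 55 sites (0.526%) reached a fold of 5, beside 1.61% of all control peaks. In the depletion list the overlapping peaks had a median fold of 3.66. The summits of both lists lay a median of 160 bp apart, and 67.8% lay within 250 bp of each other.

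Absence from the starvation list was less common at stronger control peaks. Of the control peaks kept in depletion, 85.4% had no starvation peak where the control fold was under 2.75 (exact 95% interval 83.6 to 87.0), and 55.2% had none where it was 3.5 to 4 (53.5 to 56.9). At a fold of 5 and over the share was 13.7% (10.5 to 17.5), which is 55 of 401 peaks. The exact intervals here and below are of the Clopper-Pearson kind and cover counting error only. The weakest called summit held 40 reads in the starvation list, against 12 in the depletion list and 17 in the control list, over backgrounds of 15.2, 4.20 and 6.40 reads per position in the same order of lists. Their part in the absence was not tested. The starvation list, with 15614 peaks, was also the shortest, against 105975 peaks after depletion and 31208 in control.

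**Figure D1:**
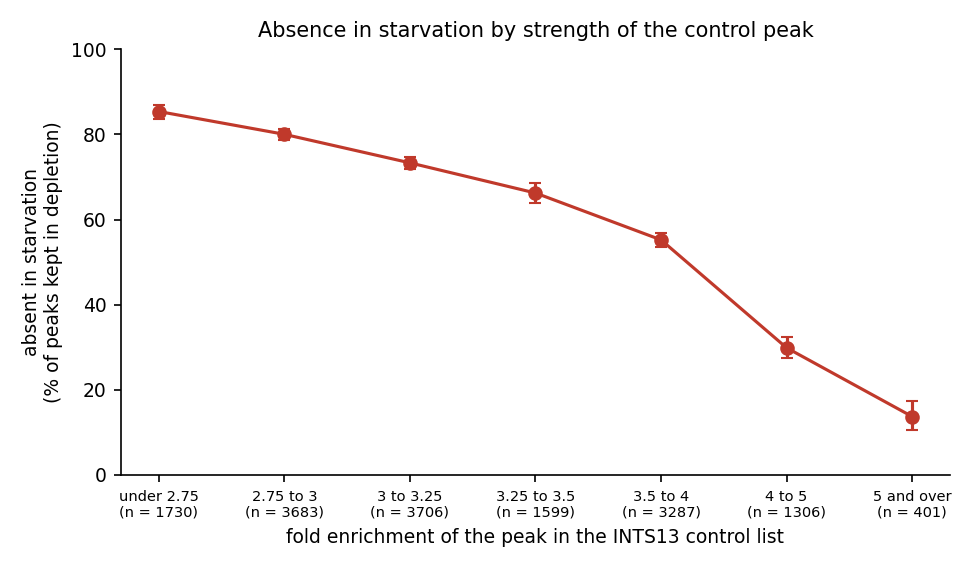
Share of INTS13 control peaks kept after HDGF depletion that had no overlapping starvation peak (y axis, percent), by the fold enrichment of the control peak (x axis, 7 classes, with the number of kept peaks below). Points are shares and bars exact 95% intervals for counting error, and the share falls in every step, to 13.7% at a fold of 5 and over.

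Absence did not always mean distance. The gap to the nearest starvation peak had a median of 3708 bp at the sites and of 13255 bp at the control-only peaks. It was under 1 kb at 2587 sites (24.7%) and over 100 kb at 403. At the edge of the rule, 44 sites lay within 10 bases of a starvation peak, and 38 peaks kept in both shared at most 10 bases with one. The site at chr1:228422631-228422969, which touches a starvation peak without sharing a base, had a fold of 4.23 after depletion and 2.84 in control. Just outside, the peak at chr1:28683190-28683693 shares 1 base with a starvation peak and had folds of 4.81 after depletion, 3.07 in starvation and 3.51 in control. The sites were also of intermediate width, with a median of 326 bp, against 510 bp for peaks kept in both and 269 bp for control-only peaks.

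HDGF, which the rule did not use, was present at a share of the sites between those of the other classes. HDGF peaks of starved cells overlapped 43.4% of the sites (42.5 to 44.4), beside 40.9% of all INTS13 control peaks. The share was 87.9% for peaks kept in both (87.0 to 88.8) and 17.6% for control-only peaks. HDGF peaks of control cells overlapped 53.7% of the sites (52.7 to 54.6), beside 45.1% of all control peaks. Here the share was 74.5% for peaks kept in both (73.3 to 75.6) and 26.8% for control-only peaks (26.0 to 27.5). Peaks found in starvation but not in depletion had shares of 70.2% with starved-cell HDGF and 50.4% with control-cell HDGF. The shares depended on what counts as overlap. Where the summits of both proteins had to lie within 250 bp, starved-cell HDGF was at 25.5% of the sites, 40.4% of the peaks kept in both and 11.5% of the control-only peaks. Control-cell HDGF was then at 24.7% of the sites and 26.8% of the peaks kept in both, a smaller gap than by shared bases.

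**Figure D2:**
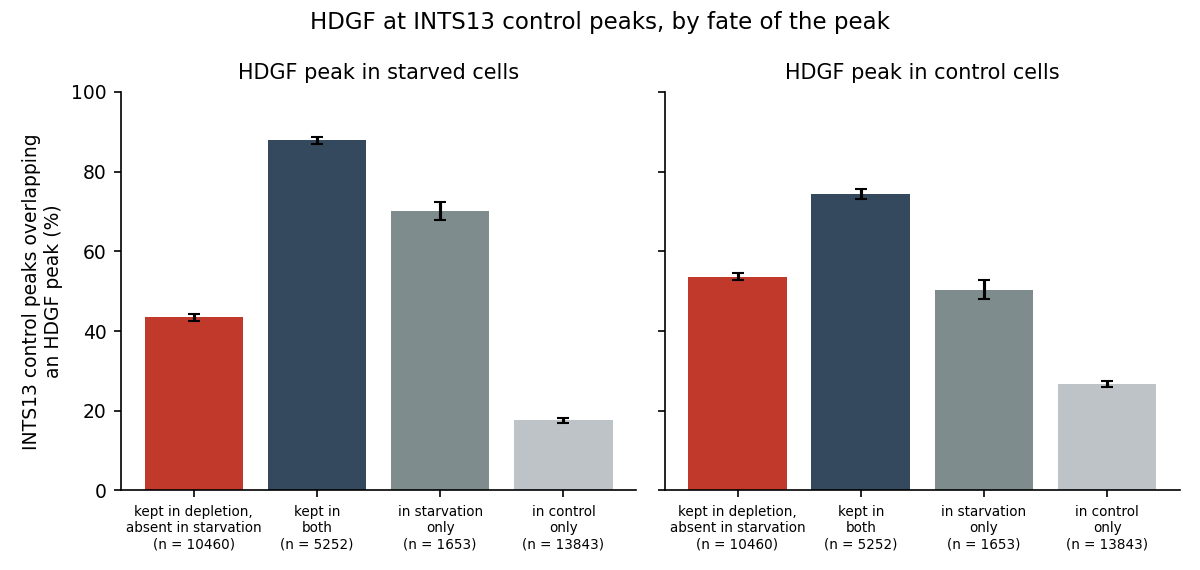
Share of INTS13 control peaks overlapping an HDGF peak of starved cells (left) or of control cells (right), in percent, for the 4 classes of INTS13 control peaks with their numbers below. Bars are shares and whiskers exact 95% intervals for counting error, and the sites lie between the peaks kept in both and the control-only peaks in both panels.

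The direction between both HDGF lists differed by class. Sites with HDGF in control cells but not in starved cells numbered 2295, or 21.9% of the sites (21.2 to 22.7), against 4.17% of the peaks kept in both (3.65 to 4.75). The reverse state, HDGF in starved cells alone, was seen at 1225 sites, or 11.7% (11.1 to 12.3), against 17.6% of the peaks kept in both (16.6 to 18.7). Control-only peaks, which also lack a starvation peak, had 16.8% with HDGF in control cells alone and 7.61% with HDGF in starved cells alone. Over all control peaks these shares were 15.9% and 11.8%, so the share of sites with HDGF in starved cells alone was near that of the whole list. The 2 classes without INTS13 in starvation thus had more sites with HDGF in control cells alone, and the peaks kept in both had more with HDGF in starved cells alone. HDGF was called in both conditions at 3318 sites and in neither at 3622. The HDGF lists differ in length, with 68115 peaks in starvation and 106673 in control, and their part in these shares was not tested.

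The same order of classes was seen within most classes of strength and width. For starved-cell HDGF, the share at a control fold under 2.75 was 35.6% of the sites, 79.4% of the peaks kept in both and 13.5% of the control-only peaks. At a fold of 4 to 5 the shares were 55.1%, 91.5% and 26.7% in the same order. At a fold of 5 and over the share at the sites was 34.5% with starved-cell HDGF (22.2 to 48.6) and 58.2% with control-cell HDGF (44.1 to 71.3). In that class the control-cell share of the 49 control-only peaks was 71.4%, above that of the sites. Among peaks 200 to 249 bp wide, starved-cell HDGF was at 34.0% of the sites, 74.7% of the peaks kept in both and 13.5% of the control-only peaks.

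The sites were concentrated on few chromosomes, as was the whole control list. Chromosome 1 held 5711 of them, or 54.6%, against 41.2% of all control peaks and 10.3% of protein-coding genes. Chromosome 13 held 1969 sites, or 18.8%, against 23.1% of control peaks, and chromosome X held 1010, or 9.66%. Of the control peaks on each, 44.4% were such sites on chromosome 1, 27.4% on chromosome 13 and 26.9% on chromosome X. Of 218 stretches of 5 Mb with any site, 9 held 50% of the sites. In the whole control list, 12 of 430 stretches held 50% of the peaks. The stretch of chromosome 1 from 225 to 230 Mb alone held 1167 sites among 2926 control peaks, and the next, from 230 to 235 Mb, held 887 among 1692. The labels give no copy number for these cells, and its part was not tested.

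**Figure D3:**
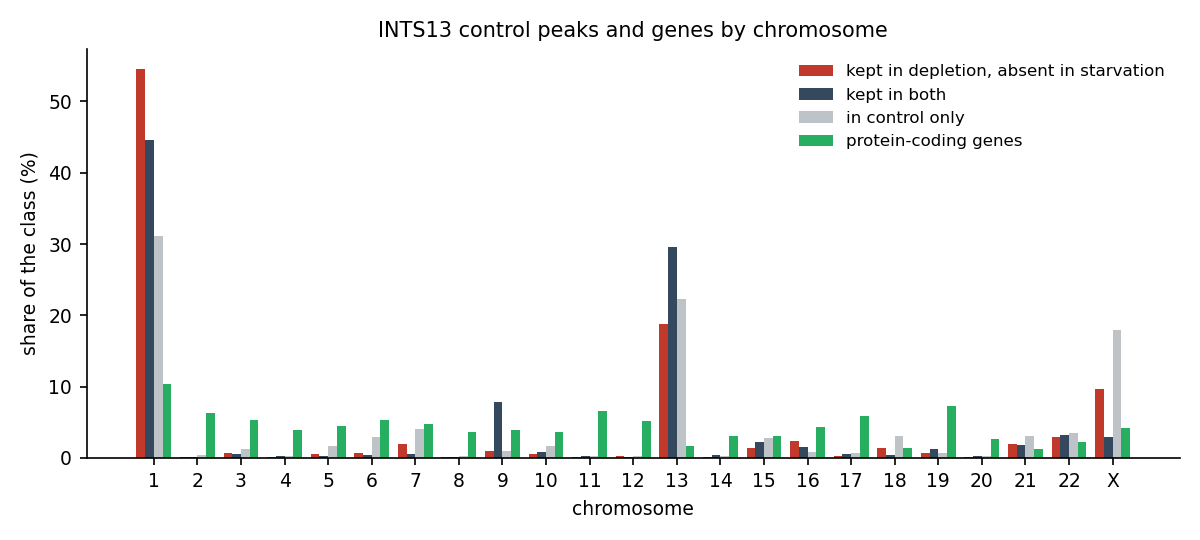
Share of each class (y axis, percent) on each chromosome (x axis) for the sites kept in depletion and absent in starvation, the peaks kept in both, the control-only peaks and protein-coding genes. Chromosome 1 holds 54.6% of the sites and 10.3% of the genes.

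HDGF at the sites varied with the chromosome. On chromosome X it was at 15.7% of the sites in starved cells (13.5 to 18.1) and 13.5% in control cells (11.4 to 15.7), and that chromosome held 21.1% of all sites without HDGF. On chromosome 1 the shares were 49.7% in starved and 60.4% in control cells. Outside chromosomes 1, 13, 22 and X, where 1469 sites lay, the shares were 37.6% and 41.9% in the same order. In that remainder the peaks kept in both had 85.5% and 72.5%, and the control-only peaks 14.7% and 17.2%, so the order of these 3 classes was the same.

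Few sites lay at gene starts or ends. A summit lay within 1 kb of a gene boundary, meaning the start site where the table gives one and either end otherwise, at 519 sites, or 4.96% (4.55 to 5.40), beside 4.90% of all control peaks. The share was 8.09% of the peaks kept in both and 3.40% of the control-only peaks. Another 54.9% of the sites lay inside genes, 35.9% within 100 kb of one, and 4.24% farther away, beside 50.5%, 36.9% and 7.67% of all control peaks in the same order. The share at boundaries was 7.51% for sites with HDGF in starved cells alone (6.10 to 9.13) and 3.01% for those with HDGF in control cells alone (2.35 to 3.79).

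The 55 strong sites, with a fold of 5 and over, split by place. At gene boundaries lay 16, with folds of 5.13 to 9.46, and none of these overlapped HDGF in starved cells and 1 did in control cells. More than 100 kb from any gene lay 28, with folds up to 16.2, of which 13 overlapped HDGF in starved cells and 25 in control cells. Strong sites at genes thus mostly lacked an HDGF peak, and strong sites far from genes mostly had one in control cells. The strongest of all, at chr7:58275772-58276045, had folds of 11.2 after depletion and 16.2 in control, and HDGF folds of 4.78 in starved and 13.1 in control cells. The next 3 lay on chromosome 1, at chr1:123146819-123147112, chr1:123013391-123013741 and chr1:124366962-124367198, with depletion folds of 5.00, 6.54 and 7.31, control folds of 9.86, 9.73 and 9.32, and HDGF in both conditions. The fifth and sixth, at chr16:38266810-38267293 and chr13:16468009-16468240, had depletion folds of 11.5 and 4.62 and control folds of 9.05 and 8.78, and HDGF in control cells only. Of the 28 far sites 18 were on chromosome 1. The stretch of that chromosome between LINC02798 and LOC101929814, which spans the centromere, held 36 sites with a median control fold of 5.34. It also held 77 peaks kept in both with a median of 9.59, and folds in such repeats rest on how the authors placed reads that match many copies.

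Protein-coding genes with a site at a boundary numbered 265, or 1.33% of the 19974 in the table, against 3.93% with any INTS13 control summit. Of the 265, 97 had a separate INTS13 starvation summit at a boundary (36.6%), beside 6.11% of all protein-coding genes, and 168 had none (63.4%, 57.3 to 69.2). HDGF had a boundary summit at 169 of them in starved cells (63.8%, beside 16.3% of all protein-coding genes), at 137 in control cells (51.7%, beside 13.3%), and at 69 in neither. Absence of a starvation peak from a site was therefore not always absence from the gene.

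Lysosome and autophagy genes had sites at 5 of 46 (10.9%), beside 1.33% of all protein-coding genes. These 5 were also all the genes of that list with any INTS13 control summit. None of the 5 had a starvation summit at a boundary, beside 97 of all 265 protein-coding genes with a site. The rule bars a starvation peak over the site, and 63.4% of the 265 had no such summit. This lack therefore does not set the 5 genes apart. None of their sites overlapped HDGF. Of 234 sites taken for the 265 genes, 121 overlapped HDGF in starved cells and 92 in control cells. After LAMP1 and HEXA came ATG3, an enzyme that attaches lipid to autophagosome proteins, with a fold of 6.35 after depletion and 4.32 in control. MCOLN1, a calcium channel of lysosomes, had 3.85 after depletion and 3.92 in control. The fifth was CTSA, a lysosomal protease, with 5.20 after depletion and 3.51 in control, named after its values were seen. The distance to the nearest starvation peak ran from 43097 bp at CTSA to the value given for LAMP1. Over the whole list 13 genes had an INTS13 summit after depletion, 1 had one in starvation and 5 in control. The shares over all protein-coding genes were 15.5%, 6.11% and 3.93% in that order.

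LAMP1 and HEXA headed the 12 strongest protein-coding genes, and CLCN6, SUMF1 and WASHC2A were among the others. CLCN6, a chloride transporter of late endosomes, had folds of 4.43 after depletion and 5.68 in control. SUMF1, which activates sulfatases destined for lysosomes, had 5.39 and 5.27, and WASHC2A, a subunit of the endosomal WASH complex, had 8.66 and 5.27, in the same order of lists. The rest were DNAJC8, a spliceosome chaperone, UBE2Q1, a ubiquitin-conjugating enzyme, SIRT4, a mitochondrial sirtuin, BAX, GPRASP3, NIPSNAP1 and FAM90A9. SIRT4 shares its site with RNU4-2, FAM90A9 has near-identical copies that make its reads uncertain, and WASHC2A has the close copy WASHC2C. DNAJC8 overlapped HDGF in control cells (fold 3.90) and NIPSNAP1 in starved cells (3.25), and the other 10 sites overlapped neither. GPRASP3 had a starvation summit elsewhere at its boundary, 453 bp or more from the site. TCEAL1, a gene of chromosome X, tied with NIPSNAP1 for the last place, with folds of 3.27 after depletion and 5.00 in control. It differed from most of the 12, with a starvation summit at its boundary, a starvation peak 42 bp from the site, and HDGF folds of 3.16 in starved and 3.25 in control cells.

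The snRNA genes, which are the classical targets of Integrator, were at 10 of 20 listed, out of 12 with any INTS13 control summit. Only RNU12, which encodes U12 of the minor spliceosome, also had a starvation summit at the gene, beside 97 of 265 protein-coding genes with a site. The rule bars a starvation peak over the site itself, so lack of a summit nearby is partly given by the rule. None of the 10 sites overlapped HDGF in either list. At protein-coding genes 121 of 234 sites did in starved cells and 92 in control cells. RNU4-2, the gene of U4, had folds of 3.46 after depletion and 5.41 in control. RNU5D-1 had 3.66 and 5.27, RNU5E-1 had 3.08 and 5.13, and RNU5F-1 had 5.97 and 5.13, in that order of lists. These 4 were the strongest of the list in control, and 3 of them encode forms of U5.

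The other 6 listed snRNA sites had lower control folds. RNU5A-1 had folds of 3.27 after depletion and 4.19 in control, and RNU5B-1 had 4.43 and 4.19. RNU12 had 3.85 and 4.05, and RNU4ATAC, the U4atac gene of the minor spliceosome, had 3.27 and 4.05. RNVU1-7, a variant U1 gene, had 4.62 and 3.78, and RNU7-1, whose RNA guides histone mRNA processing, had 4.23 and 2.70. The annotation holds 154 snRNA genes, and a site lay at 19 of them (12.3%). The strongest of these was outside the list: RNVU1-27, a variant U1 gene named after its values were seen, had 7.12 after depletion and 7.16 in control. By family, the sites were at 5 of 5 U5 genes, 7 of 17 U1 variants and 1 of 2 U4 genes, and at none of 4 U1, 3 U2 and 5 U6 genes. None of the 13 U1-variant, U5 and U4 genes with a site had a starvation summit. Only 6 of all 154 snRNA genes had one, and the rule bars a starvation peak over the site. This lack therefore does not set these families apart. The families hold near-identical copies, so the authors' read placement may have divided their reads, and the single-gene values are uncertain.

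Ribosomal protein genes had sites at 6 of 79 (7.59%), of 10 with an INTS13 control summit, beside 1.33% of all protein-coding genes with a site. RPL5 had folds of 2.69 after depletion and 4.32 in control, RPL39 had 3.85 and 3.65, RPL36A had 3.85 and 3.38, and RPL4 had 4.04 and 3.38. At RPL39 the nearest starvation peak was 50 bp from the site. Stress and glucose-starvation genes had sites at 3 of 38 (7.89%), beside the same 1.33%. They were ATF4, the transcription factor of the integrated stress response (3.66 after depletion and 4.05 in control), CTH, a cysteine synthesis enzyme (3.85 and 2.97), and TXNIP, a glucose-responsive inhibitor of thioredoxin (3.27 and 2.84). None of these 3 had a starvation summit, beside 97 of 265 protein-coding genes with a site. The rule bars a starvation peak over the site, and 3 genes are too few to stand apart. None of the 3 sites overlapped HDGF, beside 121 of 234 sites at protein-coding genes in starved cells and 92 in control cells. Over all 38 stress genes, 14 had an INTS13 summit after depletion, 7 had one in starvation and 4 in control. The shares over all protein-coding genes were 15.5%, 6.11% and 3.93% in that order.

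Single genes stood for several other lists. TSC1, an mTORC1 inhibitor, was the 1 of 21 AMPK and mTOR genes with a site, at 3.85 after depletion and 3.65 in control. NDUFA9 of complex I (1 of 32), the linker histone gene H1-4 (1 of 56), the liver marker TTR (1 of 16) and the muscle marker ACTN2 (1 of 17) had control folds of 2.84 to 2.97. No site lay at a boundary of 20 Integrator genes, 5 HDGF family genes, 25 glycolysis, 39 cell cycle, 35 immediate early, 33 polymerase II pausing, 40 cilia or 29 lipid synthesis genes. Blood and neuron markers, 20 and 14 genes, had none either. At the background of 1.33%, counts of 0 or 1 in lists of this size do not stand apart.

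**Figure D4:**
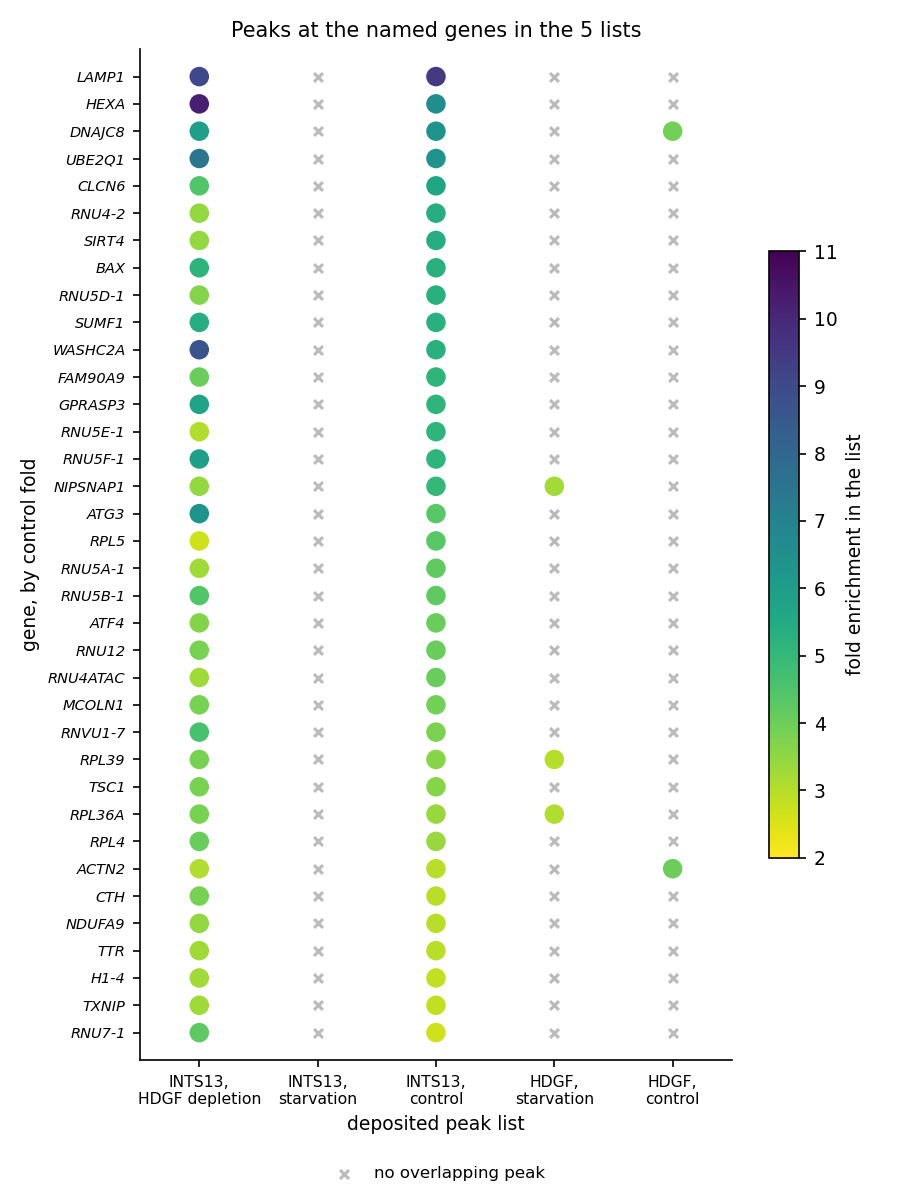
Fold enrichment (colour) of the peak overlapping the site at each named gene (rows, by control fold) in the 5 deposited lists (columns), with a cross where no peak overlapped. The starvation column of INTS13 is empty by the rule, and of the 36 genes shown DNAJC8 and ACTN2 had HDGF in control cells and NIPSNAP1, RPL39 and RPL36A in starved cells.

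The E-box count was taken over promoter windows. The sites overlapped 150 distinct windows, and 43 of them held CACGTG (28.7%, 21.6 to 36.6), beside 7.24% of all 34789 windows. The share was 12.2% of 262 windows at peaks kept in both (8.51 to 16.8), 16.4% of 61 at starvation-only peaks (8.15 to 28.1) and 14.9% of 134 at control-only peaks (9.36 to 22.1). At sites with a control fold of 4 and over, a limit set after the data were seen, the letters were in 23 of 30 windows (76.7%, 57.7 to 90.1). At peaks kept in both of that strength they were in 12 of 113 (10.6%, 5.61 to 17.8). Windows of neighbouring or alternative starts can overlap each other, and with 1 window per site the share over all sites was 28.1% (20.1 to 37.3). At a fold of 4 and over this check was not made. There some sites, such as that of ATF4, gave more than 1 window, and the interval counts each window. Outside chromosomes 1, 13, 22 and X the share over all sites was 45.6% of 68 windows (33.5 to 58.1). It was therefore lower on those 4 chromosomes, which held 86.0% of the sites. E-box shares of the other classes were not split by chromosome.

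E-box shares differed with HDGF. Windows at sites without an HDGF peak of starved cells held the letters in 40.9% (30.8 to 51.5), against 8.77% at sites with one (2.91 to 19.3). For HDGF of control cells the shares were 35.7% without (26.9 to 45.1) and 5.71% with it (0.700 to 19.2). Over all windows under HDGF peaks, they were 8.78% in starved cells and 5.94% in control cells. The median GC content of site windows was 61.3% without and 51.7% with HDGF of control cells. For HDGF of starved cells it was 59.3% without and 59.0% with it. These HDGF contrasts were not matched for GC content or for chromosome. HDGF and E-box shares of the sites both varied with chromosome. The part of GC content and of chromosome in these contrasts was not tested. The difference between sites and peaks kept in both was present where base composition was matched: at a GC content of 50 to 60% the shares were 28.0% (16.2 to 42.5) and 3.70% (0.452 to 12.7). At 60 to 70% they were 30.4% and 13.8%, with overlapping intervals, and at 70% and over 60.9% (38.5 to 80.3) and 17.4% (10.3 to 26.7), against 9.69% of all windows that GC-rich. Below 50% they were 3.23% and 4.55%, with 1 window each.

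The letters also lay near the summits. The nearest E-box was a median of 27.5 bases from the summit at the sites, with 27 of 43 windows within 50 bases. It was 108.5 bases, with 8 of 32 windows, at peaks kept in both, and 58 bases, with 10 of 20, at control-only peaks. Of the listed lysosome genes, CTSA had a distance of 1.5 bases, LAMP1 2.5, ATG3 8.5 and MCOLN1 51.5, and the stress gene ATF4 had 77.5. A further 3 of the 41 genes with an E-box window were picked by their known roles after the values were seen and stand for no group. IGF2R, the mannose 6-phosphate receptor, had folds of 5.00 after depletion and 4.19 in control. NAGPA, which uncovers that sorting signal, had 5.58 and 4.32, and GNPTG, a subunit of the enzyme that makes it, had 4.43 and 3.65. Their E-boxes lay 6.5, 37.5 and 26.5 bases from the summits, and none of the 3 overlapped HDGF.

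Among the other 10 motifs, searched on both strands, ATGGCGG of YY1 ran the other way. It was in 13.3% of windows at the sites (8.34 to 19.8), 34.0% at peaks kept in both (28.3 to 40.1) and 31.1% at starvation-only peaks (19.9 to 44.3), beside 5.56% of all windows. GGGCGG, the GC box, was in 47.3%, 62.6% and 72.1% in the same order, beside 44.9% of all, and GGGAGGG of MAZ in 18.7%, 32.8% and 31.1%, beside 26.6%. The median GC content of the windows was 59.0%, 65.7% and 69.0% in that order, and its part in these shares was not tested. At control-only peaks the YY1 letters were in 11.9% of windows (6.98 to 18.7), near the share at the sites. At a control fold of 4 and over they were in 33.3% of site windows (17.3 to 52.8). Peaks kept in both of that strength had 43.4% (34.1 to 53.0), with overlapping intervals. For the other 7 the interval at the sites overlapped that of the peaks kept in both. The CCAAT box (CCAAT) was in 34.0% of site windows and 27.1% of windows at peaks kept in both, beside 34.6% of all windows. The TATA box (TATAAA) was in 7.33% and 2.67%, beside 11.6%, in that order.

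The rest of these motifs differed by less. The snRNA promoter element, searched as ACCGNNA, was in 28.7% of site windows and 26.7% at peaks kept in both, beside 20.7% of all. The ETS core, searched as CCGGAAG, was in 21 of 150 site windows and 42 of 262 at peaks kept in both, beside 10.2% of all. For NRF1 the letters GCATGCG were in 7.33% and 6.11%, beside 3.87%. These 3 motifs belong to promoters of broadly used genes or of snRNA genes. For the CRE the letters TGACGTC were in 4.67% and 3.05%, beside 3.43%. For ZNF143 the letters ACTACAA were in 6 of 150 and 12 of 262, beside 2.76%. A match describes letters in a window and shows no binding of the factor named.

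**Figure D5:**
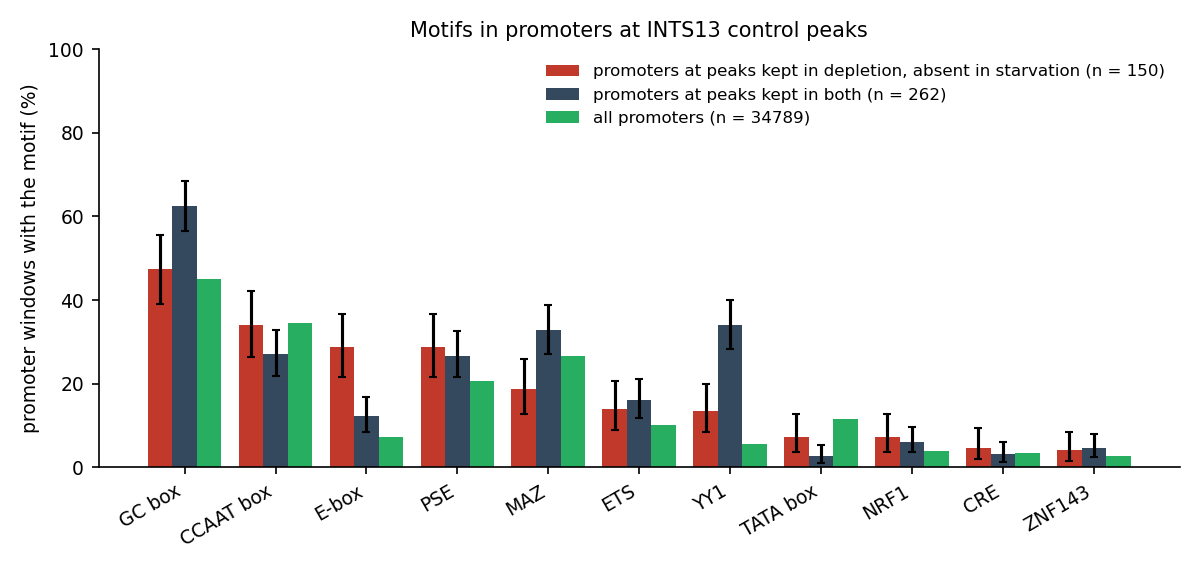
Share of promoter windows of 300 bases holding each motif on either strand (y axis, percent), for windows at sites kept in depletion and absent in starvation, at peaks kept in both, and for all RefSeq windows. Whiskers are exact 95% intervals for counting error. The E-box is in 28.7% of site windows against 12.2% at peaks kept in both, and YY1 in 13.3% against 34.0%.

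Of 1558 miRNA hairpins in RefSeq, 9 overlapped a site, and 6 of these were covered or touched by a single site, chr13:91350619-91351396. It lies on the cluster of MIR17 to MIR92A1, miRNAs best known for promoting proliferation in tumours. The fold was 3.27 after depletion and 3.51 in control, with HDGF folds of 4.15 in starved and 5.20 in control cells. The nearest starvation peak was 1596 bp away. The 5′ arm is given for miR-17, miR-20a and miR-18a and the 3′ arm for the others, with the seed, bases 2 to 8, in capitals.
hsa-miR-17-5p: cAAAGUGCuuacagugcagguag
hsa-miR-20a-5p: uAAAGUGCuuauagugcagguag
hsa-miR-18a-5p: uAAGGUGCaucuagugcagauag
hsa-miR-19a-3p: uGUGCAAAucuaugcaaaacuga
hsa-miR-19b-3p: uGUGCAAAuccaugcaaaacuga
hsa-miR-92a-3p: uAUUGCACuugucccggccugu
The first pair share the seed AAAGUGC, and miR-19a and miR-19b share GUGCAAA. These are sequences of the RNAs encoded under the site, and the data say nothing of their levels.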

How the data were processed

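ChIP-seq of INTS13 and HDGF was deposited as 1 peak list per group of 2 labelled replicates. The submitters' processing notes name MACS2, Bowtie, Trimmomatic, Picard and FastQC, and build hg38. The deposited peak names carry the value 0.05. Versions, other settings, how replicates were joined and how inputs were used: not given in the sources used here. The authors' lists hold, per peak, an integer score, a fold enrichment, the summit position, and p and q values as −log10. The 6 inputs were not analysed here, and read totals are unknown; the background was derived from the deposited fold and −log10 p values, nearly all of which follow a Poisson distribution with 1 mean per list. That mean, given in the report as unscaled reads per position, is the only measure of depth.

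From these files, overlaps of at least 1 base were computed with Python 3.11.15, pandas 2.3.3 and numpy 2.4.6, tested on simulated intervals, and exact 95% intervals with scipy 1.17.1. They cover counting error only. The 41 control peaks on other sequences were left out. Genes and promoter windows came from RefSeq tables of GRCh38.p14, the assembly of hg38. Start sites were known for 15812 of 19974 protein-coding genes, and either end was used for the other 4162. Promoter windows of chromosome 8 and of snRNA genes were not used here.

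The sites, the 19 gene lists and the motifs were chosen with earlier results of these data known. Genes were named by rule: the 12 protein-coding genes whose sites ranked highest by −log10 q in control, all listed snRNA, Integrator and HDGF family genes, and up to 4 per other list. The 6 strongest sites away from genes are given by position. Exceptions are stated where they occur. Alternatives covered overlap, absence, strength, list length, gene windows and chromosomes.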

Additional observations from a re-analysis of the deposited data

How the results depend on the processing

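With a single list per group, leaving out replicates could not be done. No paired analysis was possible because the lists carry no replicate numbers. The number of sites was 8517 with 50% of the control peak covered, 8365 with summits within 250 bp and 7873 with no starvation peak within 1 kb. It was 3197 with none within 10 kb, 6036 at a control −log10 q of at least 3, 81 at 10, 3614 with the depletion list shortened to the length of the starvation list, 1469 without chromosomes 1, 13, 22 and X, and 4749 without chromosome 1. Sites with an HDGF peak of starved cells, and then of control cells, were 49.7% and 58.3% with 50% covered, 46.8% and 55.0% with summits within 250 bp, and 37.3% and 50.5% with no starvation peak within 1 kb. They were 26.5% and 40.4% with none within 10 kb, 47.6% and 58.7% at −log10 q of 3, 39.5% and 66.7% at 10, 54.9% and 67.5% with the shortened list, 37.6% and 41.9% without the 4 chromosomes, and 46.4% and 58.0% without chromosome X. With HDGF summits within 250 bp they were 25.5% and 24.7%, the one setting where the starved-cell share was the higher, with 50% covered by HDGF 29.8% and 41.2%, and with HDGF lists of the INTS13 control length 27.3% and 35.4%. Against all other control peaks as 1 group, the sites had the lower share of starved-cell HDGF with no starvation peak within 1 kb (others 42.1%) or 10 kb (42.5%) and at −log10 q of 3 (49.4%) or 10 (80.2%), and of control-cell HDGF at 10 kb (45.6%) and at −log10 q of 10 (83.6%). The direction of that comparison therefore depends on these choices; the cause was not tested.

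Sites at gene boundaries were 5.51% with 50% covered, 5.94% at 10 kb, 23.5% at −log10 q of 10, 5.70% with the shortened list, 8.85% without the 4 chromosomes, and 2.80% and 11.2% with boundary windows of 500 and 2500 bp. Protein-coding genes with a site numbered 130 at 10 kb, 170 and 14 at −log10 q of 3 and 10, 120 with the shortened list, 105 without the 4 chromosomes, and 162 and 510 with those windows. The E-box share was 42.7% and 77.8% (of 9 windows) at −log10 q of 3 and 10, 41.2% with the shortened list, 45.6% without the 4 chromosomes and 45.8% with the summit inside the window, and 27.8% to 36.5% in the other 5 settings. The E-box settings and those without chromosome 1 or X alone were chosen after seeing the data. The median site rests on 22 reads at the summit, the lists have different backgrounds, and absence means no called peak; the part of depth in the calls was not tested.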
